A study of Mus musculus with 52 samples.

Results

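The genes described here are 6 transcriptional targets of p53 that arrest the cell cycle or feed back on p53: Cdkn1a, Ccng1, Plk2, Btg2, Phlda3 and Mdm2. They were taken as all probe sets of the deposited table that the array annotation pairs with 1 of these symbols alone, which gave 11 probe sets of 22626 and 6 genes of 12393. Cdkn1a, Btg2 and Mdm2 had 2 probe sets each, Ccng1 had 3, and Plk2 and Phlda3 had 1 each. All 11 passed the filter on low values, which kept 18349 probe sets.

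Liver RNA of male B6C3F1 mice, 9 weeks old at dosing, was measured on 52 Affymetrix arrays, each holding RNA pooled from 5 mice. Mice received 1 intraperitoneal administration, and livers were taken 4 h, 20 h, 14 days or 28 days later. Alkylating agents were ENU (ethylnitrosourea) at 150 mg/kg, DMN (dimethylnitrosamine) at 5 mg/kg and DPN (dipropylnitrosamine) at 250 mg/kg, each with a saline control array of its own at each time. Aromatic mutagens were AAT (o-aminoazotoluene) at 300 mg/kg, DMBA (7,12-dimethylbenzanthracene) at 20 mg/kg and DBP, which is dibenzo[a,l]pyrene, at 6 mg/kg, and these shared 1 olive oil array at each time. The non-genotoxic chemicals, EtOH (ethanol) at 1000 mg/kg and PB (phenobarbital) at 30 mg/kg, shared 1 saline array. Each treated group was thus 1 pool and 1 array, the 4 saline arrays of a time came from 4 control sets, and spread between mice could not be measured. Doses differed between all chemicals, so that sizes are given side by side and are not a comparison of potency.

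The transcription factor p53 is held at a low level in unstressed cells, where the ubiquitin ligase Mdm2 marks it for degradation, and it accumulates after DNA damage. It then raises transcription of genes that stop the cell cycle and of genes that act back on p53 itself. Alkylating agents modify DNA bases, in the case of nitrosamines after oxidation in hepatocytes, while the aromatic mutagens form bulky DNA adducts after metabolic activation.

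In these livers the median log2 ratio of the 6 genes to own control at 4 h and 20 h was 1.97 and 3.05 after DPN, 1.04 and 2.41 after DMN, 1.42 and 1.33 after ENU, and 0.39 and 1.73 after AAT. On the first day the log2 ratios of DMBA and DBP lay between -0.45 and 0.45 for the 5 genes other than Cdkn1a, by the brightest probe set of each. Dimmer probe sets of Ccng1 went outside this range. For DMBA at 20 h they gave 0.98 (1420827_a_at) and 0.61 (1450017_at), and for DBP at 4 h 1420827_a_at gave -0.85. Cdkn1a, which encodes the cyclin-dependent kinase inhibitor p21, had the largest ratio of the 6 genes at 20 h after each of DPN, DMN, ENU and AAT. Its signal 20 h after DPN was at least 51.0-fold over the own saline control. DMN and AAT had their largest ratios at 20 h in 6 and 5 of the 6 genes, and ENU had its largest at 4 h in 4 of 6 (Plk2, Btg2, Phlda3 and Mdm2). For Cdkn1a the order of both times after ENU cannot be read, since its ratio was 3.68 at 4 h and at least 3.63 at 20 h. At 28 days DPN had 6 of 6 genes above its control, as had AAT, DMBA and DBP. At least 2-fold above it were 4 of 6 for DPN (all probe sets: 1.38%), and 0 or 1 of 6 for each other chemical. The heat map of log2 ratios shows these values for all 32 treated arrays.

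**Figure D1:**
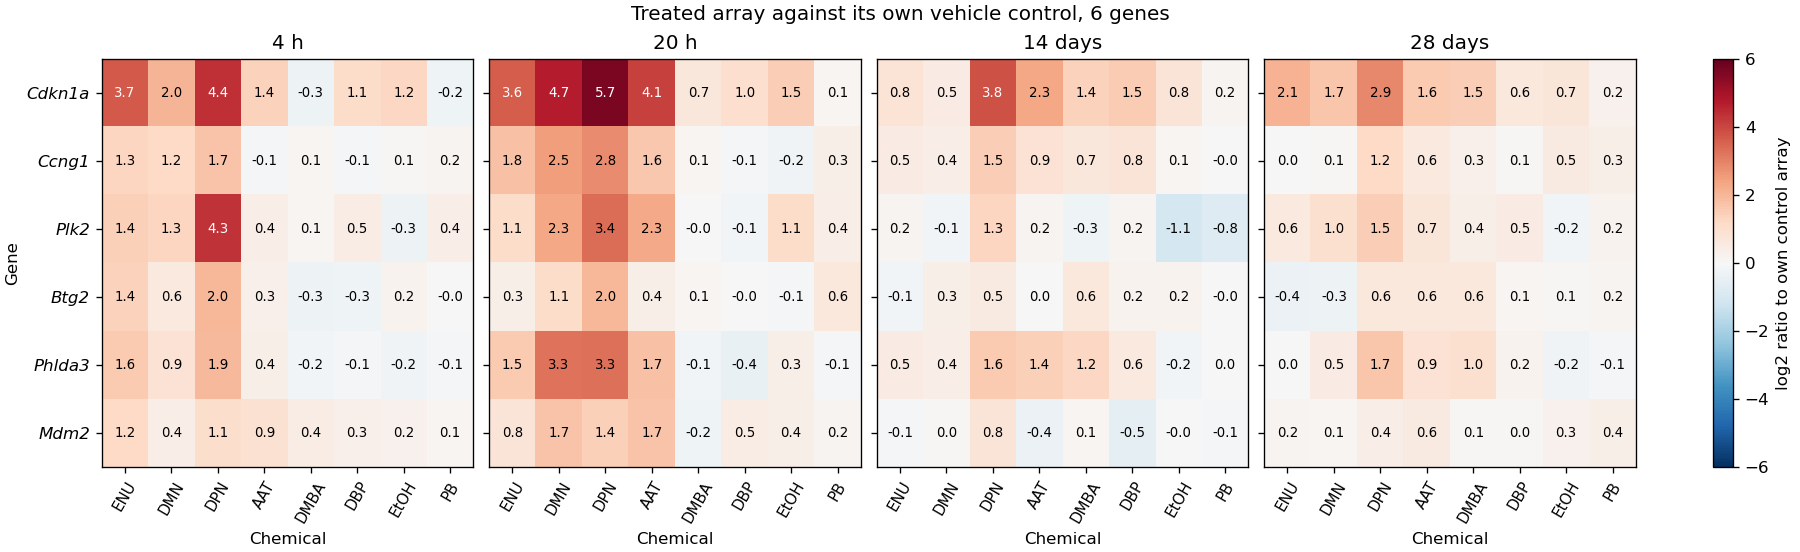
Heat map of the log2 ratio of each treated array to its own vehicle control (colour and printed value), with genes as rows, chemicals as columns and 1 panel for each time; each cell is 1 array against 1 array, and for Cdkn1a the ratios of ENU and DPN at 20 h and DPN at 14 days and for Plk2 that of DPN at 4 h are lower bounds. The deepest red cells lie in the ENU, DMN, DPN and AAT columns, up to 5.67 for Cdkn1a with DPN at 20 h.

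The promoter windows of the 6 genes are shown first because p53 binds its targets through a known sequence. The windows come from RefSeq (build GRCm38.p6) and run from 250 bases before to 50 bases after each annotated start, and all 6 genes were matched, in 7 windows. They were searched for the p53 half-site consensus, which is its own reverse complement, so that both strands are covered. A full site was counted as 2 half-sites with 0 to 13 bases between them and at most 1 mismatch in all. An exact half-site was found in 3 of the 6 genes, and in 8.36% of the 32851 windows of all genes. A full site was found in 2 of the 6 genes, and in 0.627% of all windows. Printed below are the window of Cdkn1a at chr17:29090729-29091028 (plus strand), that of Ccng1 at chr11:40755237-40755536 (minus strand) and that of Mdm2 at chr10:117710709-117711008 (minus strand), which hold the matches, and that of Phlda3 at chr1:135765835-135766134 (plus strand), a gene with large ratios and no match in its window. Capitals mark the exact half-sites, and where a full site was found also its other half-site.
Cdkn1a: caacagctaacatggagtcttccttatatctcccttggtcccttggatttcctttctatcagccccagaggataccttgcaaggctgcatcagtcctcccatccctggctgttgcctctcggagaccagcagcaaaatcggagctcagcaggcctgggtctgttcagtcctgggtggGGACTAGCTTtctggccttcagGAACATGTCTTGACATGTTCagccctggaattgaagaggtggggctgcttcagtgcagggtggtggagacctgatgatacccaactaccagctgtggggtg
Ccng1: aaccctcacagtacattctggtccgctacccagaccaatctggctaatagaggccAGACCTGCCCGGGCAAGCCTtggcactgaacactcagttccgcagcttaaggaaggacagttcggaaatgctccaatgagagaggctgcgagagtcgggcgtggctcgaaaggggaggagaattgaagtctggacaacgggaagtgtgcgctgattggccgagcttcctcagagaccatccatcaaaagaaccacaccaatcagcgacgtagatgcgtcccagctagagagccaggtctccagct
Mdm2: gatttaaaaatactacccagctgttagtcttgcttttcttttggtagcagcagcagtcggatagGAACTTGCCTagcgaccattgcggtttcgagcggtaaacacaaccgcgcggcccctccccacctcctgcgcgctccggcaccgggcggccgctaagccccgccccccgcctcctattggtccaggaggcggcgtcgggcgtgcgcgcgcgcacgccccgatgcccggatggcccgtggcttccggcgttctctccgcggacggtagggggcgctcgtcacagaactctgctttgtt
Phlda3: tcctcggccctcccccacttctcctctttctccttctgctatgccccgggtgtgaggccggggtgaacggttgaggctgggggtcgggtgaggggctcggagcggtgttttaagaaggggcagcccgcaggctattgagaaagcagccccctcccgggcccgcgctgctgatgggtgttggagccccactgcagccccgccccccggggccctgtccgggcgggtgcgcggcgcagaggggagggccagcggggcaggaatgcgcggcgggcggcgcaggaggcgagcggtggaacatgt
In Cdkn1a the exact half-sites GGACTAGCTT (chr17:29090906-29090915) and GAACATGTCT (chr17:29090928-29090937) lay 12 bases apart and formed a full site with 0 mismatches. The second of them ran on without a spacer into a further half-site, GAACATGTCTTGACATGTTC, with 1 mismatch. In Ccng1 the full site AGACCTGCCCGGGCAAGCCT (chr11:40755462-40755481) had 1 mismatch, and in Mdm2 the half-site GAACTTGCCT (chr10:117710935-117710944) stood alone. No complete match was in the windows of Plk2, Btg2 and Phlda3, nor in the second window of Cdkn1a. The Phlda3 window ends in gaacatgt, which fits the start of a half-site, so its edge may cut off a match. Each match describes the letters only.

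Some arrays stood apart. In the ethanol array of 20 h, control probe sets at the 3′ end exceeded those at the 5′ end by 3.13 (Gapdh) and 3.79 (actin) on the log2 scale, against at most 0.343 and 1.28 in the other arrays. The array labelled as saline control of EtOH and PB at 20 h went against its label, with a log2 signal of Cyp2b10, which phenobarbital induces, of 11.5 against 8.25 in the phenobarbital array and 6.19 to 7.26 in the other 4 controls of that time. Without it and the ethanol array, left out after their values had been seen, 13 instead of 15 gene and chemical pairs were called at 20 h in the tests of single chemicals (share over all probe sets not counted). The pairs lost were Cdkn1a for ethanol itself and Phlda3 for ENU (adjusted p = 0.0652). The phenobarbital array of 28 days had the lowest median signal, 17.9. The highest, 205, was in the DMN saline control of 14 days, on which all DMN ratios of that time rest. The next highest was 106. The DMN saline control of 4 h was the highest of the 4 saline arrays of that time for Cdkn1a, Ccng1, Plk2 and Phlda3. Against the 3 other saline arrays, the median log2 difference of the 6 genes for DMN at 4 h was 1.85, where the ratio to own control gave 1.04. The EtOH and PB ratios at 20 h rest on that saline array. Marker lists of 7 liver cell types were compared between genotoxic and control arrays. The summed log2 signal of the 6 hepatocyte markers ran from 15.7 to 16.2 in genotoxic and 15.6 to 16.1 in control arrays at 4 h, and from 15.3 to 15.9 against 15.6 to 16.1 at 20 h. For the 6 Kupffer cell markers it ran from 10.3 to 10.9 against 10.4 to 11.2 at 4 h and from 10.5 to 10.9 against 10.5 to 10.9 at 20 h. None of the markers passed the class test at 4 h or 20 h. This test called 0% of all probe sets at both times. At 20 h 6 of 6 hepatocyte markers had a negative class difference, with a median of -0.17. For DPN at 20 h, Cd68 was called higher (log2 ratio 1.04), while the other 5 Kupffer cell markers had ratios from -0.60 to -0.17. The stellate cell marker Reln was called lower (-1.79, all probe sets lower: 0.518%). Of the other stellate markers, Col3a1 had -0.95, Des -0.10, Col1a1 -0.09, Lrat (48 of 52 arrays at the floor) 0 and Dcn 0.29. Krt7 was called higher for AAT at 20 h (0.41). Cholangiocyte markers Krt7, Krt19 and Sox9 stood at the floor in 48, 32 and 35 of 52 arrays. The part of cell composition in the results was not tested. In RNA of whole liver, a change in the number of cells of a type and a change in RNA per cell cannot be told apart.

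Cdkn1a stood above its controls after the alkylating agents on the first day. How many of all probe sets separate treated from control arrays was not counted, here and for the genes below, so that such statements only describe signals. Signals of the main probe set (1424638_at, the brighter of the 2) at 4 h were 796 after ENU, 875 after DMN and 1682 after DPN. The saline arrays of the same time had 61.9 (ENU set), 215 (DMN set), 81.0 (DPN set) and 51.99 (EtOH and PB set). All 3 treated arrays lay above all 4 saline arrays. Of the aromatic mutagens, AAT gave a signal of 174, DMBA of 53.4 and DBP of 140, against 66.2 in the olive oil array. Ethanol gave 123 and phenobarbital 44.2 against 51.99, so that AAT, DBP and ethanol lay above their controls and DMBA and phenobarbital below.

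At 20 h Cdkn1a signals were 402 after ENU, 1637 after DMN and 1657 after DPN. The 4 saline arrays had 19.2, 63.3, 15.2 and 73.0, of which those of ENU and DPN were under the floor of 32.5 to which low values were raised. Against the floor, the ratios were at least 12.4-fold for ENU and at least 51.0-fold for DPN, and that of DMN was 25.9-fold. AAT gave 977 against 57.3 in olive oil, a 17.0-fold ratio, while DMBA gave 92.5 and DBP 117. Treated and saline arrays did not overlap for ENU, DMN and DPN. Ethanol gave 201 and phenobarbital 78.0, against 73.0 in their control.

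At both late times the Cdkn1a ratio was positive in 6 of 6 genotoxic chemicals, and also for ethanol and phenobarbital. For DMBA and DBP it was larger at 14 days than on the first day, when it was -0.31 and 0.69 for DMBA and 1.08 and 1.03 for DBP at 4 h and 20 h. At 14 days the log2 ratio was at least 3.84 for DPN, and it was 2.34 for AAT, 1.53 for DBP, 1.36 for DMBA, 0.81 for ENU and 0.50 for DMN. At 28 days it was 2.87 for DPN, 2.10 for ENU, 1.66 for DMN, 1.57 for AAT, 1.48 for DMBA and 0.62 for DBP. The olive oil array of 28 days had a signal of 157 and the 4 saline arrays 38.3 to 73.2, so the ratios of the aromatic mutagens at that time rest on a high control. Ethanol and phenobarbital had log2 ratios of 0.77 and 0.18 at 14 days, where ethanol lay above DMN, and of 0.71 and 0.24 at 28 days.

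**Figure D2:**
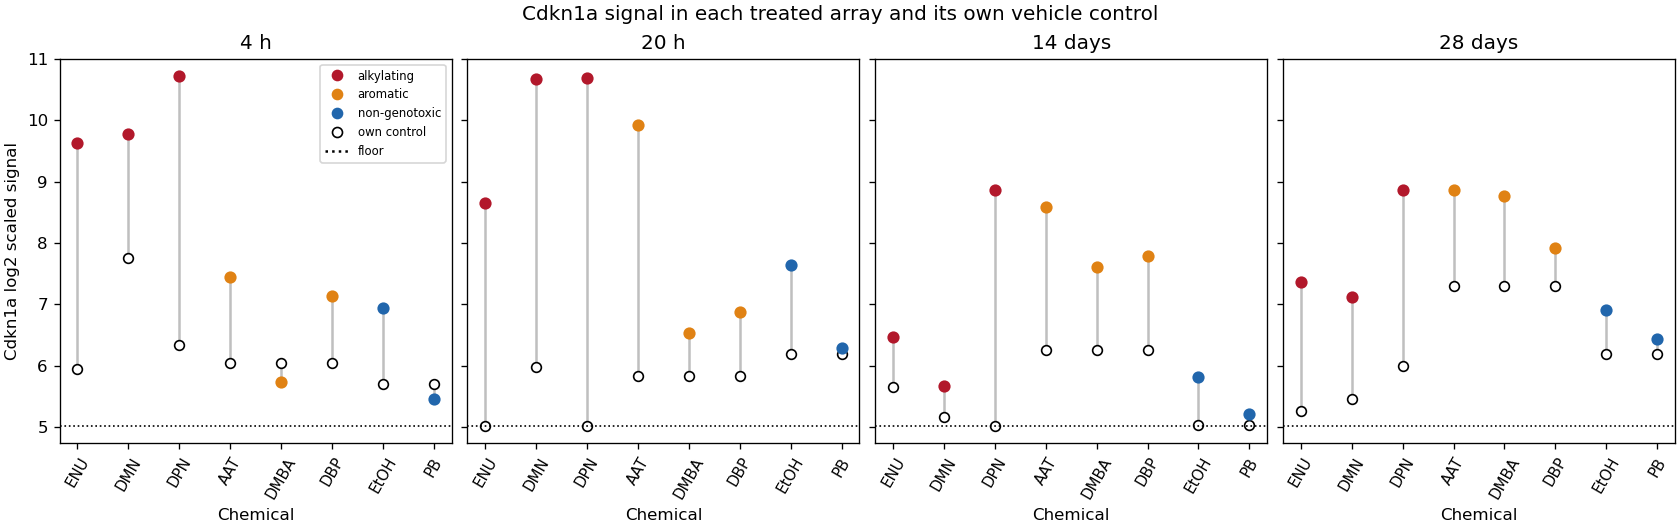
Log2 scaled signal of Cdkn1a (main probe set) in each treated array (filled, coloured by class) and in its own vehicle control (open), 1 panel for each time and 1 column for each chemical, with the floor as a dotted line. The controls at 20 h lie between the floor at 5.02 and 6.19, and DMN and DPN lie at 10.7.

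Single chemicals were tested in 1 limma fit of all arrays, in which each chemical was set against the mean of the 4 saline arrays of its time or against the olive oil array. The lone treated array was assumed to vary like the saline pools, which gave 12 residual degrees of freedom, so that p-values measure the spread between these pools. Calls were made at an adjusted p under 0.05 over 18349 probe sets. Of 48 gene and chemical pairs at each time, 8 were called at 4 h (all probe sets and chemicals, higher: 0.28%), 15 at 20 h (1.44%), 2 at 14 days (0.229%) and 1 at 28 days (0.163%), all of them higher than vehicle and 0 lower. Of the 26 calls, 12 held when each of the 4 saline sets was left out in turn, and 2 held in every alternative. These 2 were Cdkn1a for DMN and for DPN at 20 h. Without the DMN control of 4 h, which was left out after its values had been seen, the count at 4 h was 12 (share over all probe sets not counted).

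By chemical, ENU had 1 of 6 genes called at 4 h (all probe sets higher: 0.452%) and 2 of 6 at 20 h (0.234%). DMN had 2 of 6 at 4 h (0.316%) and 4 of 6 at 20 h (0.251%). DPN had 5 of 6 at 4 h (0.867%), 6 of 6 at 20 h (0.758%), 2 of 6 at 14 days (0.158%) and 1 of 6 at 28 days (0.213%). AAT had 2 of 6 at 20 h (0.48%), and 0 of 6 at 4 h (0.153%), where 5 of 6 genes lay above the olive oil array. DMBA, DBP and phenobarbital had 0 of 6 at every time, where 0.162% of all probe sets were called higher over the 3 chemicals and 4 times, so these zeros do not set the 6 genes apart. Ethanol had 1 of 6 at 20 h, where 9.53% of all probe sets were called higher and the array had the raised 3′ to 5′ ratios.

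The fitted log2 difference of Cdkn1a from vehicle was 5.12 ± 0.64 (SE) for DMN and 5.14 ± 0.64 for DPN at 20 h (adjusted p = 0.00117 and 0.000622). For DPN at 4 h it was 4.28 ± 0.64 (adjusted p = 0.00249). The call for ENU at 4 h (3.20 ± 0.64, adjusted p = 0.0385) was lost without the ENU, the DPN or the EtOH and PB saline arrays (adjusted p = 0.113, 0.18 and 0.09), and so was that for DMN at 4 h (3.34 ± 0.64, adjusted p = 0.0409, then 0.2, 0.218 and 0.143). Without the DMN saline control of 4 h, the difference for DMN at 4 h was 3.78 (adjusted p = 0.00219). ENU at 20 h, with a difference of 3.10 ± 0.64, had an adjusted p of 0.0674. AAT at 20 h had 4.09 ± 0.81 (adjusted p = 0.0328) and lost its call without the ENU or the DPN saline arrays (0.0814 and 0.138), as did DPN at 14 days (3.64 ± 0.64, adjusted p = 0.0382, then 0.101 and 0.253) and ethanol at 20 h (2.10 ± 0.64, adjusted p = 0.0366, then 0.0896 and 0.128).

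**Figure D3:**
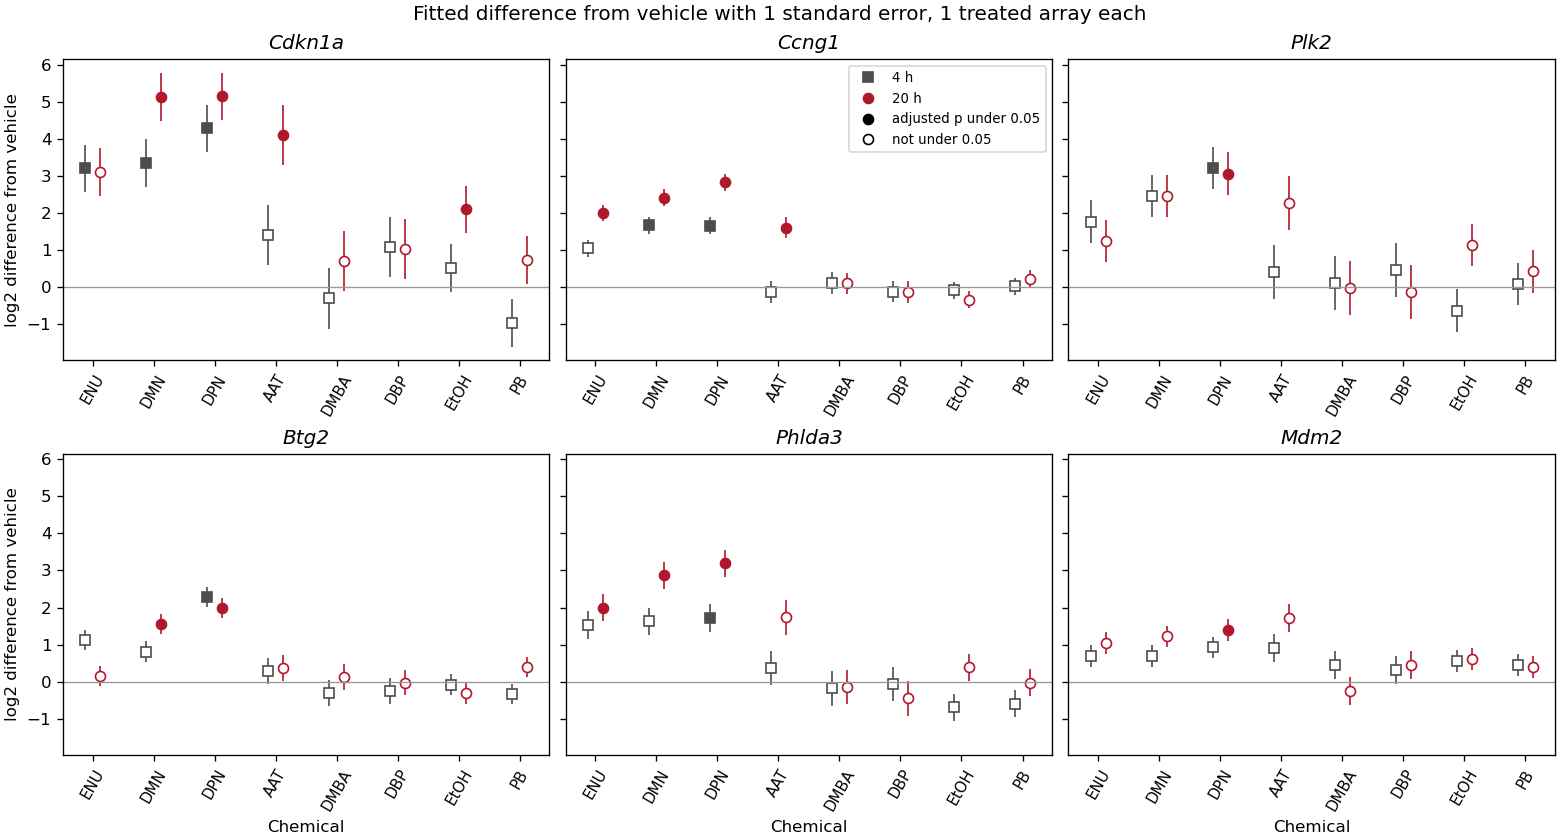
Fitted log2 difference from vehicle for each chemical at 4 h (grey squares) and 20 h (red circles), 1 panel for each gene; bars are 1 standard error, and filled symbols have an adjusted p under 0.05. DPN is filled for 5 genes at 4 h and for 6 at 20 h, and DMBA, DBP and PB are open throughout.

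Phlda3, whose product competes with the kinase Akt for membrane lipids and so lowers Akt signalling, had at 20 h signals of 433 after ENU, 791 after DMN, 990 after DPN and 491 after AAT. The saline arrays had 148, 82.4, 101 and 112, and the olive oil array 147. These 4 treated arrays lay above all 5 controls, and DMBA (133) and DBP (108) lay below the olive oil array. The fitted difference was 2.87 ± 0.37 for DMN (adjusted p = 0.00145) and 3.19 ± 0.37 for DPN (0.000313), and both held without each saline set. The calls for ENU at 20 h (2.00 ± 0.37, adjusted p = 0.0354) and DPN at 4 h (1.72 ± 0.37, 0.0347) were lost without the ENU, the DPN or the EtOH and PB saline arrays, with adjusted p of 0.0904, 0.221 and 0.101 for ENU and 0.126, 0.187 and 0.108 for DPN. AAT at 20 h had a log2 difference of 1.74 with an adjusted p of 0.175. At 14 days the log2 ratio to own control was 1.58 for DPN, 1.43 for AAT and 1.24 for DMBA, and at 28 days 1.68, 0.88 and 0.97. Those of AAT and DMBA rest on olive oil arrays (log2 6.45 and 6.48) below all 4 saline arrays of the same time.

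Plk2 encodes a polo-like kinase with a role in the cell cycle. Its signal at 4 h was 241 after ENU, 388 after DMN and 655 after DPN, against 88.2, 158, 23.3 and 56.0 in the saline arrays, of which that of DPN was under the floor. All 3 treated arrays lay above all 4 saline arrays, and those arrays themselves spanned 2.28 on the log2 scale. DPN had a fitted difference of 3.21 ± 0.57 at 4 h (adjusted p = 0.00973) and 3.05 ± 0.57 at 20 h (0.0152). Both calls were lost without the ENU or the EtOH and PB saline arrays (adjusted p = 0.0505 and 0.0605 at 4 h, 0.0699 and 0.0595 at 20 h). For DMN the difference was 2.45 at both times (adjusted p = 0.151 and 0.16), and for AAT it was 2.27 at 20 h (0.309). Both non-genotoxic chemicals lay below their saline array at 14 days, with log2 ratios of -1.07 for ethanol and -0.77 for phenobarbital.

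Ccng1, which encodes cyclin G1, had the smallest spread among saline arrays at 20 h of the 6 genes (SD 0.16 on the log2 scale, n = 4), with signals from 251 to 321. At that time it reached 1092 after ENU, 1453 after DMN, 1935 after DPN and 865 after AAT (olive oil 285). DMBA gave 306 and DBP 259, so only these 2 genotoxic chemicals overlapped the saline range. Fitted differences at 20 h were 2.00 ± 0.23 for ENU, 2.41 ± 0.23 for DMN and 2.82 ± 0.23 for DPN (adjusted p = 0.000601, 7.63e-05 and 1.11e-05), and each held without each saline set. At 4 h DMN (1.67 ± 0.23, adjusted p = 0.00252) and DPN (1.66 ± 0.23, 0.00121) also held. AAT at 20 h (1.60 ± 0.29, 0.0175) lost its call without the DPN saline arrays (0.109). DPN was still called at 14 days (1.37 ± 0.23, 0.0262) and 28 days (1.27 ± 0.23, 0.0295). These late calls were lost without the ENU or the DPN saline arrays (0.096 and 0.245 at 14 days, 0.093 and 0.215 at 28 days), and at 28 days also without the EtOH and PB saline arrays (0.109).

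Btg2, an antiproliferative protein that acts on transcription and mRNA decay, had signals at 4 h of 403 after ENU, 325 after DMN and 907 after DPN, against 154, 219, 229 and 152 in the saline arrays. The 3 treated arrays lay above the 4 saline arrays, and AAT (339), DMBA (226) and DBP (233) lay around the olive oil array (278). DPN had a fitted difference of 2.29 ± 0.27 at 4 h (adjusted p = 0.000316) and 1.98 ± 0.27 at 20 h (0.00144), and both held without each saline set. DMN at 20 h (1.56 ± 0.27, 0.0205) lost its call without the ENU, the DPN or the EtOH and PB saline arrays (0.138, 0.162 and 0.111). ENU had a log2 ratio to own control of 1.38 at 4 h and 0.33 at 20 h, and was below its control at 14 and 28 days (-0.15 and -0.35).

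Mdm2, the ubiquitin ligase that marks p53 for degradation and thereby closes the feedback loop, had by its main probe set (1427718_a_at) the smallest ratios of the 6 genes after DPN at 4 h, at 20 h and at 28 days. Its other probe set (1423605_a_at) gave 2.18 for DPN at 4 h and 0.82 at 28 days, against 1.06 and 0.39 by the main one. Its main probe set gave 327 after ENU, 324 after DMN and 381 after DPN at 4 h, against 143, 247, 183 and 251 in the saline arrays. At 20 h the signals were 284, 323 and 367, against 167, 99.5, 137 and 162, and AAT gave 547 against 166 in olive oil. The treated arrays of the 3 alkylating agents lay above the saline arrays at both times. At 4 h, however, DMN had a log2 ratio of only 0.39 to its own control, and none of them was called by the main probe set. DPN at 20 h was called (1.40 ± 0.29, adjusted p = 0.0289), and the call was lost without the DMN or the DPN saline arrays (0.0692 and 0.155). AAT at 20 h, with 1.72 ± 0.37, had an adjusted p of 0.0543. At 14 days 3 of 6 genotoxic chemicals lay above their control, with log2 ratios from -0.52 for DBP to 0.76 for DPN.

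Time courses differed in shape between the chemicals, as described by the ratios to own control. DMN had a Cdkn1a log2 ratio of 2.02 at 4 h, 4.69 at 20 h, 0.50 at 14 days and 1.66 at 28 days. At 4 h the log2 signal in the DMN saline control was 7.75, against 5.70 to 6.34 in the other saline arrays, and its Ccng1, Plk2 and Phlda3 values of 8.67, 7.30 and 7.90 were the highest of the 4 as well. Set against the mean of the 4 saline arrays, DMN at 4 h had a Cdkn1a difference of 3.34. Set against the 3 other saline arrays alone it was 3.78, and at 20 h the difference from the mean of the 4 saline arrays was 5.12. The step from 4 h to 20 h was thus present with the own control and with the mean of the 4 saline arrays, and larger with the own control. Against the 3 other saline arrays alone, no value at 20 h is given. The DMN signal was 875 at 4 h and 1637 at 20 h, and that of its own control 215 and 63.3. The log2 ratio at 28 days was also set against the peak. For DPN it was 43.1% of the peak for Ccng1, 51.2% for Phlda3, 32.4% for Btg2 and 27.3% for Mdm2. It was at most 50.6% for Cdkn1a and 33.7% for Plk2, whose peaks are lower bounds. For ENU it was 0.703% for Ccng1, 2.61% for Phlda3, 13.2% for Mdm2 and 39.8% for Plk2. For Cdkn1a after ENU it was at most 57.0%, since the ratio at 20 h is also a lower bound, and the Btg2 ratio was negative at 28 days. For AAT it was 38.5% for Cdkn1a, 38.0% for Ccng1, 31.4% for Plk2, 50.8% for Phlda3 and 32.4% for Mdm2. The Btg2 ratio of AAT was largest at 28 days. These percentages do not describe a steady decline. After ENU the ratio was lower at 14 than at 28 days for Cdkn1a (0.81 against 2.10) and Plk2 (0.17 against 0.58). After AAT it was so for Plk2 (0.16 against 0.71) and Mdm2 (-0.37 against 0.56), but not for Cdkn1a, Ccng1 and Phlda3. For DBP the largest ratio came at 14 days in 4 of 6 genes and for DMBA in 3 of 6. For Ccng1 and Phlda3 these rest on an olive oil array below all 4 saline arrays of 14 days. Its log2 signals were 7.74 against 7.84 to 8.11 and 6.45 against 6.64 to 7.20. For Cdkn1a it lay above them (6.25 against 5.02 to 5.66), and the Btg2 ratio of DBP was only 0.23.

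**Figure D4:**
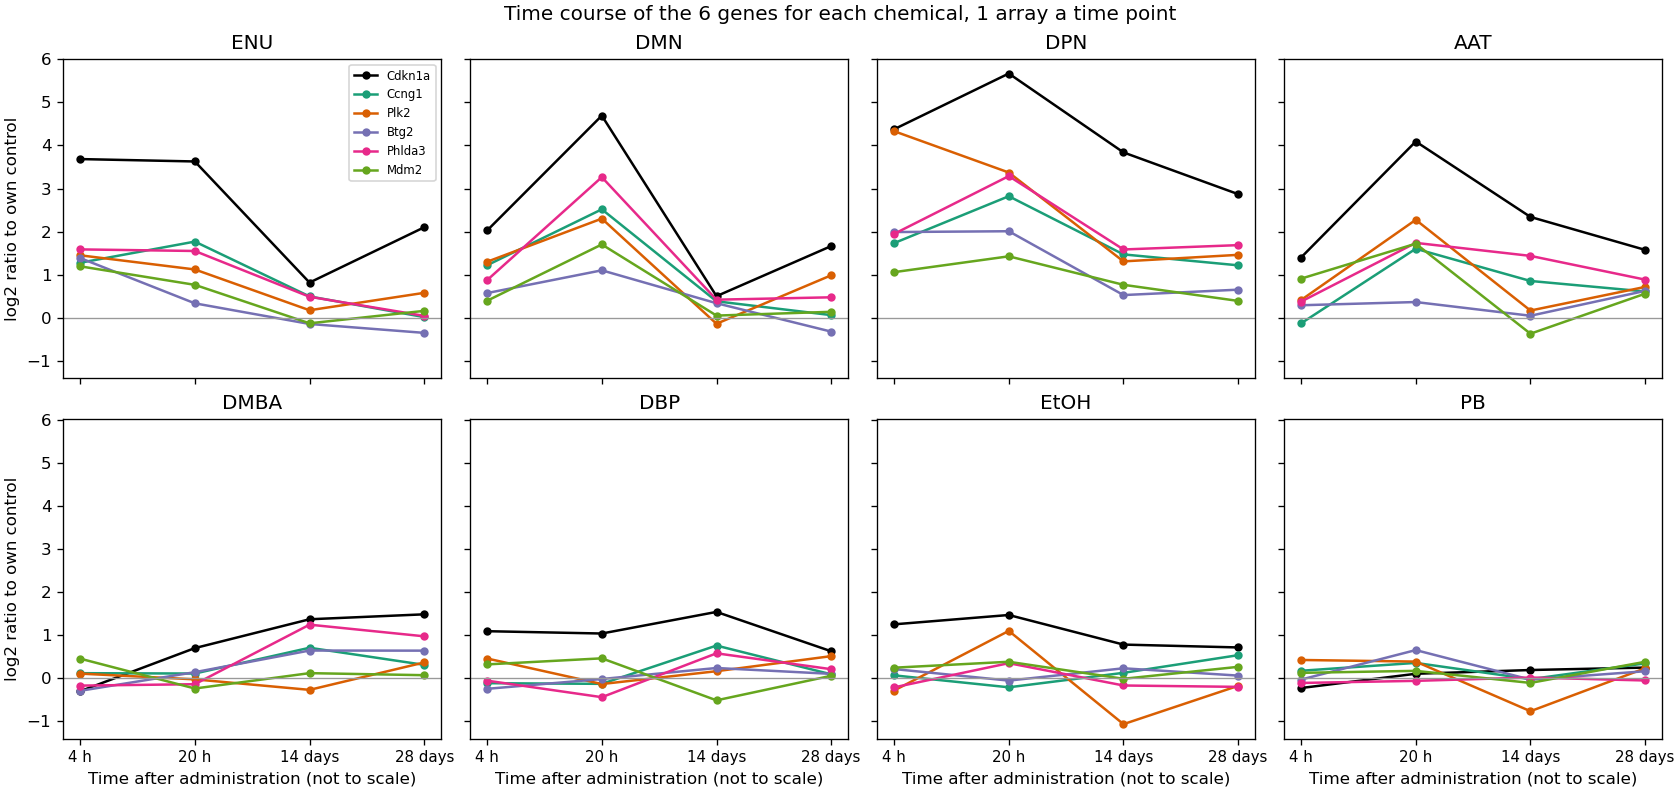
Log2 ratio to own control over the 4 times (axis not to scale), 1 panel for each chemical and 1 line for each gene, with 1 array for each point. Cdkn1a peaks at 20 h for DMN (4.69), DPN (at least 5.67) and AAT (4.09), while for ENU the value at 20 h is a lower bound (at least 3.63, against 3.68 at 4 h).

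With the 6 genotoxic chemicals as replicates of a class, and the control set as a block, the fitted log2 difference of Cdkn1a was 2.48 ± 0.68 (SE) at 4 h, 3.76 ± 0.87 at 20 h, 1.73 ± 0.49 at 14 days and 1.88 ± 0.31 at 28 days. At 20 h Phlda3 had 1.93 ± 0.63, Ccng1 1.75 ± 0.48, Plk2 1.74 ± 0.62, Mdm2 1.08 ± 0.39 and Btg2 0.82 ± 0.31. None of the 6 genes was called at any time. In the same limma fits 0% of probe sets were called at 4 h, 20 h, 14 days and 28 days, while 1785, 847, 2164 and 1116 had an unadjusted p under 0.05. When all 52 arrays shared 1 estimate of the spread, 3 of the 6 genes were called at 20 h (all probe sets: 0.104%), namely Cdkn1a and Ccng1 (adjusted p = 0.0161 for both) and Phlda3 (0.0469), and 0 at 4 h (0.0599%). For Cdkn1a, the adjusted p at 20 h ranged from 0.0161 to 1 over the alternatives.

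For the non-genotoxic class, 0 of 24 gene and time pairs were called (all probe sets over the 4 times: 0.358%). The fitted log2 difference of Cdkn1a was 0.50 at 4 h and 0.78 at 20 h, with standard errors of 1.24 and 1.60. A p over the threshold with errors of this size does not show that the genes stayed level. Between times, 0 of 6 genes were called in the genotoxic class at each of 3 steps (0% of probe sets, 4092 at an unadjusted p under 0.05). From 20 h to 14 days the fitted difference was negative in 6 of 6 genes, with -2.03 ± 0.91 for Cdkn1a and -1.01 ± 0.35 for Mdm2 (adjusted p = 0.534 and 0.411).

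Ratios of alkylating agents at 4 h were set against those of aromatic mutagens, which all rest on 1 olive oil array. How many of all probe sets separate these classes was not counted, so the ranges are a description only. Cdkn1a ran from 2.02 to 4.38 against -0.31 to 1.40, Ccng1 from 1.22 to 1.73 against -0.13 to 0.11, and Plk2 from 1.30 to 4.33 against 0.10 to 0.45. Phlda3 ran from 0.87 to 1.95 against -0.18 to 0.37 and Btg2 from 0.57 to 1.99 against -0.30 to 0.29. Mdm2 overlapped (0.39 to 1.19 against 0.31 to 0.91). For Btg2 the olive oil array was high (log2 8.12 against 7.25 to 7.84 in the saline arrays), and by signal AAT (339) exceeded DMN (325). At 20 h Ccng1 ran from 1.77 to 2.82 against -0.14 to 1.60. AAT lay within the alkylating range in Plk2, Btg2 and Phlda3, and above it in Mdm2 (1.72 against 0.76 to 1.70). For Cdkn1a, AAT (4.09) lay below DMN and DPN, and its order with ENU (at least 3.63) cannot be read. With the 3 other saline arrays as control in place of its own, DMN at 4 h had 3.78 for Cdkn1a, 1.82 for Ccng1 and 2.84 for Plk2. In the test of the difference itself, 0 of 24 gene and time pairs were called (all probe sets over the 4 times: 0.0722%). The smallest adjusted p was 0.135, for Ccng1 at 4 h with a difference of 1.46 ± 0.21. Without the control-set block the number of pairs called was 4. The share over all probe sets was not counted there, so this number does not set these genes apart.

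Probe sets of the same gene were compared over the 32 ratios. For Cdkn1a the second probe set (1421679_a_at) was dim, with 31 of 52 arrays at the floor and a mean signal of 33.0. Its ratio for DMN at 20 h, where both probe sets had a control above the floor, was 1.75 against 4.69. Pearson's r with the main probe set was 0.83 over all ratios, those set by the floor included. It was called for ENU, DMN and DPN at 4 h and for DMN, DPN and AAT at 20 h, and also for AAT at 14 days (log2 difference 0.77, adjusted p = 0.0133, all probe sets higher: 0.196%) and 28 days (0.83, adjusted p = 0.0301, all probe sets higher: 0.0654%), where the main probe set was not. Most saline arrays of this probe set stood at the floor, which made its spread small (SE 0.11), and a small spread at the floor does not measure the spread of the RNA.

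For Ccng1 the 2 other probe sets gave larger ratios than the main one in DPN at 4 h, with log2 values of 3.43 (1420827_a_at) and 2.41 (1450017_at) against 1.73, and Pearson's r with the main one was 0.89 and 0.94. The 2 probe sets of Btg2 had r of 0.71 and differed most for AAT at 14 days, where 1448272_at gave 1.52 and the main one 0.04. Those of Mdm2 had r of 0.74 and differed most for DMN at 4 h, where 1423605_a_at gave 1.79 and the main one 0.39. The second Mdm2 probe set was called for DMN at 4 h and 20 h, for DPN at 4 h and for AAT at 20 h (log2 difference 2.81, adjusted p = 0.00179), which the main one was not.

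**Figure D5:**
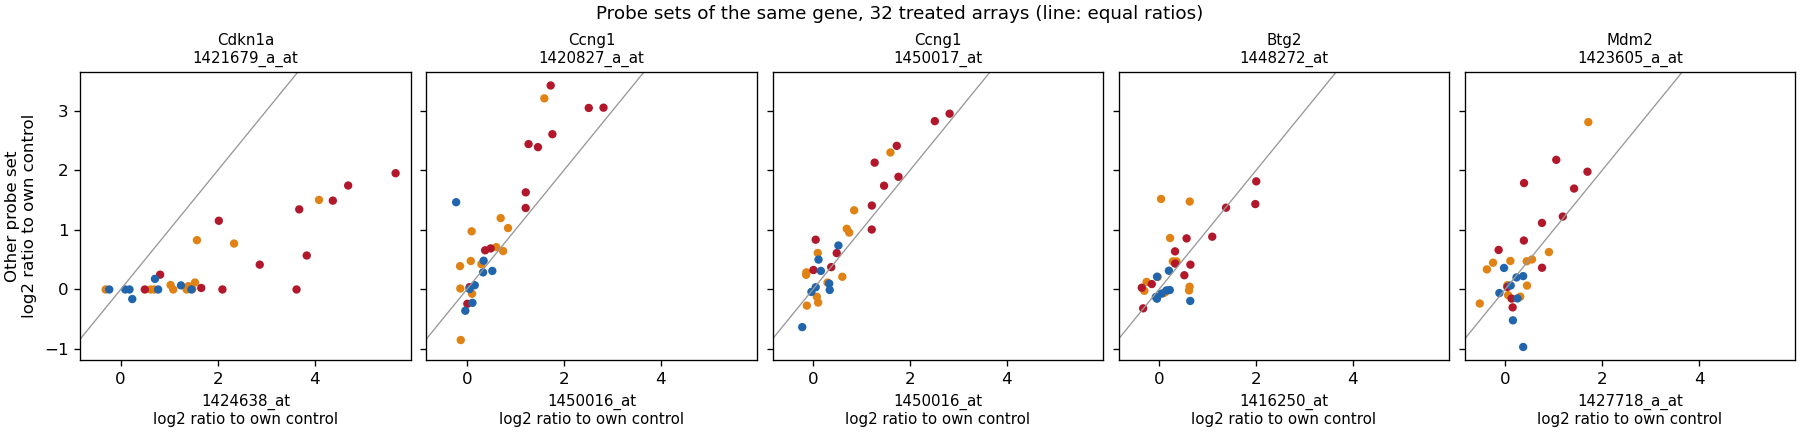
Log2 ratio to own control of the other probe set of a gene (vertical) against that of the main probe set (horizontal) in 32 treated arrays, coloured by class (red alkylating, orange aromatic, blue non-genotoxic); the line marks equal ratios. Most Cdkn1a points lie under the line, and those at 0 on the vertical axis are pairs in which both arrays stood at the floor; points of 1420827_a_at (Ccng1) lie mostly above it.

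Ratios of the 6 genes were compared over the 32 treated arrays, some of which share control arrays and so are not independent. Pearson's r between gene pairs ran from 0.61 (Btg2 with Mdm2) to 0.93 (Ccng1 with Phlda3). Of 10749 other genes, those most like the mean of the 6 standardised ratios were Tubb4b (r = 0.92), a beta tubulin; Aaas (0.90), a nuclear pore protein with 37 of 52 arrays at the floor; Aen (0.84), a nuclease induced by p53; Trp53inp1 (0.83), a p53-induced nuclear protein; and Sulf2 (0.78), a heparan sulfate sulfatase. Tubb4b had log2 ratios of 1.59 for ENU and 1.85 for DPN at 4 h, and of 1.71 for DMN, 2.30 for DPN and 1.65 for AAT at 20 h.

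Other genes of the pathway were taken from lists. Among 27 further p53 targets, 21 had a kept probe set, and 17 of these had a positive fitted difference in the genotoxic class at 4 h and 17 at 20 h. Their medians were 0.19 and 0.20, against 0.01 and 0.01 over all probe sets. Single chemicals called 2 of them higher for ENU and 3 for DPN at 4 h, and 3 for DMN and 4 for DPN at 20 h, where all probe sets had 0.452%, 0.867%, 0.251% and 0.758%. Ethanol called 1 at 20 h, Bbc3 (all probe sets higher: 9.53%). Aen had log2 ratios of 1.29, 0.75 and 1.74 for ENU, DMN and DPN at 4 h, and 1.33, 1.46 and 1.65 at 20 h. Trp53inp1 had 2.14, 1.58 and 1.81 at 4 h. After ENU, DMN and DPN the genes called were Aen and Trp53inp1 in each of the 4 cases, with Gadd45a (44 of 52 arrays at the floor) for DPN at 4 h, Dcxr for DMN at 20 h, and Zmat3 and Psrc1 for DPN at 20 h; Gadd45a, Dcxr and Zmat3 are named after their values were seen. Psrc1, with 26 of 52 arrays at the floor, was called for DPN at 20 h, where its ratio was 2.30. Fas, a death receptor, had a class difference of -0.95 ± 0.28 at 4 h, with an adjusted p of 0.44.

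Regulators of p53, measured with 10 of 12 genes, had 4 positive and 6 negative class differences at 4 h and 3 and 7 at 20 h, with medians of -0.07 and -0.03. Of these, Chek1, with 46 of 52 arrays at the floor, was called higher for DBP at 4 h (all probe sets higher: 0.131%). Ethanol at 20 h called Usp7 and Crebbp higher and Atm lower (all probe sets lower: 7.66%), and the 6 other chemicals called 0. Of the relatives of the 6 genes, 14 of 16 were measured, and their medians were 0.07 and -0.01. Plk3, a kinase related to Plk2, had 1.01 ± 0.35 at 4 h and Btg1 0.59 ± 0.18 (adjusted p = 0.469 and 0.44). Phlda1, related to Phlda3, had -0.51 ± 0.28 at 4 h and -0.85 ± 0.34 at 20 h (adjusted p = 0.591 and 0.965). Cdkn1c, a p21 relative with 31 of 52 arrays at the floor, had -0.53 ± 0.24 at 20 h (0.965) and was called lower for AAT at 20 h (all probe sets lower: 0.196%) and higher for ethanol. Ethanol at 20 h also called Tob1 and Cdkn2b higher and Ccni lower. Among 18 of 22 cyclins, kinases and proliferation genes that p21 acts on or that mark division, medians were -0.01 and -0.02. DPN called 1 of them at 4 h, Cdk1, for which 47 of 52 arrays stood at the floor, and ethanol at 20 h called Mcm2 higher and Rbl2 lower. Chek1 and the genes named for ethanol were chosen after their values were seen.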

How the data were processed

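The authors measured liver RNA pooled from 5 mice on 52 Affymetrix arrays and deposited linear probe-set intensity values for 22690 probe sets. Software and scaling were not given in the sources used here, and the study's text names another Affymetrix array than the probe-set names fit. Array medians ran from 17.9 to 205, and precision is limited by how many arrays there were. The 64 control probe sets were left out. Arrays were scaled to a common median (the mean over arrays), signals under the 30th percentile (32.5) were raised to it as a floor, and values were put on the log2 scale. A probe set was kept (18349 were) if 4 or more arrays exceeded the floor. Each gene was represented by the brightest of its kept probe sets. Where a control stood at the floor, a ratio is a lower bound.

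Tests used limma 3.58.1 in R 4.3.3 (lmFit, eBayes with trend) with Benjamini-Hochberg adjustment over all kept probe sets, and were checked on simulated data. Class fits at each time had the control set as a block and 6 residual degrees of freedom, the comparison of alkylating with aromatic chemicals had 5, and the fit of all 52 arrays had 24. Cell type, pathway and relative lists were described by counts. Named genes were the 6 genes, the 5 genes most like them, and from each list up to 4 genes with the largest class difference at 4 h or 20 h, of which only some are named. The genes, lists, rule and alternatives were chosen with earlier results of these data known. Figures were drawn with matplotlib in Python.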

Additional observations from a re-analysis of the deposited data

Results flagged for a closer look

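Btg2 had a log2 signal of 7.36 in the DMN saline control of 28 days, against 6.95 to 7.02 in the other 3 saline arrays, which put that array far from the others. Of 24 groups of saline arrays tested, 1 stood apart in this way, and chance puts about 1 in 20 groups there. The log2 ratio of Btg2 for DMN at 28 days, -0.32, rests on this control.

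The dim probe set of Cdkn1a (1421679_a_at) differed between the alkylating and the aromatic chemicals at 4 h by 1.31 on the log2 scale (limma, adjusted p = 0.0251), with the aromatic arrays and their control at or near the floor. The main probe set had a difference of 2.64 ± 1.15 (SE) with an adjusted p of 0.633.

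At 28 days the mean log2 ratio of Phlda3 was 0.71 over the 6 genotoxic chemicals, all above their controls, while ethanol and phenobarbital lay below theirs (-0.21 and -0.06). AAT, DMBA and DBP share the olive oil array, whose log2 signal of 6.48 lay below the 4 saline arrays (6.86 to 7.06), and the signal of 103 after DBP was below every saline array (116 to 133). This difference between the classes was not tested.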

How the results depend on the processing

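Calls for single chemicals depended on the scaling and on single control sets. Of gene and chemical pairs, values as deposited gave 0 calls at 4 h, 2 at 20 h, 0 at 14 days and 0 at 28 days (8, 15, 2 and 1 after scaling). Against the own control array alone there were 4 at 4 h, 0 at 14 days and 0 at 28 days. A floor at the 10th percentile gave 1 at 14 days and 0 at 28 days, one at the 50th percentile 2 at 28 days, any probe set of a gene 2 at 28 days, and no variance trend 0 at 14 days. Leaving out each saline set in turn gave 4 to 12 calls at 4 h, 9 to 16 at 20 h, 0 to 3 at 14 days and 0 to 2 at 28 days. The fewest came without the ENU arrays or the EtOH and PB arrays at 4 h (4 each), without the DPN arrays at 20 h (9), without the ENU or the DPN arrays at 14 days (0), and without the ENU, the DPN or the EtOH and PB arrays at 28 days (0). Without the DMN control of 4 h, an alternative chosen after seeing the data, 3 were called at 28 days. In the genotoxic class, 1 fit of all 52 arrays called 3 genes at 20 h, and every other class alternative called 0 at each time. For alkylating minus aromatic, any probe set of a gene gave 1 pair. No control-set block gave 4 (share over all probe sets not counted). None of the values followed changed direction in any alternative run. Only the called pairs and the class values at 4 h and 20 h were followed. The called pairs had been picked for large differences, and pairs not called and late class values were not followed. Of the values of called pairs, 281 stayed past the threshold and 82 did not. Of the class values, 207 stayed on their side and 3 passed. The cause of these changes was not tested. With 1 array for each treated group, all calls for single chemicals assume that a treated pool varies like a saline pool.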
